A study of Mus musculus with 19 samples.

Results

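The voltage-gated calcium channel alpha-1 subunits are the pore-forming proteins that let calcium into excitable cells when the membrane is depolarised. The 8 genes described here are Cacna1a, Cacna1b, Cacna1c, Cacna1d, Cacna1e, Cacna1g, Cacna1h and Cacna1i, chosen by gene symbol from the 55416 genes of a read count table of mouse hippocampus. All 8 had a row in the table, and 8 of 8 were among the 19234 genes that passed the filter on low counts. They were followed across 19 libraries of 4 groups that combine the neuronal deletion of EZH2, a histone methyltransferase of the Polycomb repressive complex, with status epilepticus, a prolonged seizure. The groups were 4 EZH2nHom libraries after kainate, 5 EZH2nHom libraries after saline, 5 WT libraries after kainate and 5 WT libraries after saline. Kainate, an agonist of a class of ionotropic glutamate receptors, was given in repeated low doses until status epilepticus, and the hippocampus was taken 4 days later.

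Mice of every group were on the C57BL6 background and carried 1 copy of the Synapsin1-Cre driver, Syn1Cre(+/-), so the WT controls with EZH2(+/+) also expressed the recombinase. EZH2nHom mice are labelled EZH2(-/-), from floxed alleles that the driver deletes in neurons, and glia and vessels of these mice keep the gene. The labels give no ages. Each library is a bulk sample of tissue labelled R. Hippocampus, so fewer cells of a type and less RNA per cell cannot be told apart. The labels do not say whether replicates came from separate animals, so p-values measure the spread between these libraries.

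As background, each alpha-1 subunit forms a channel of its own type, and auxiliary beta and alpha-2-delta subunits bring it to the membrane. Cacna1a makes the P/Q-type channel and Cacna1b the N-type channel, which open at strong depolarisation and trigger transmitter release at nerve terminals. Cacna1c and Cacna1d make L-type channels, which sit largely on cell bodies and dendrites of neurons and couple activity to transcription. Cacna1e makes the R-type channel, found in dendrites, spines and terminals of hippocampal pyramidal cells. Cacna1g, Cacna1h and Cacna1i make T-type channels, which open near the resting potential and drive burst firing. Of the alpha-1 genes outside the 8, Cacna1s averaged 0.645 CPM and Cacna1f did not pass the filter on low counts.

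In the count table the genes are ENSMUSG00000034656 (Cacna1a, on chromosome 8), ENSMUSG00000004113 (Cacna1b, chromosome 2), ENSMUSG00000051331 (Cacna1c, chromosome 6), ENSMUSG00000015968 (Cacna1d, chromosome 14), ENSMUSG00000004110 (Cacna1e, chromosome 1), ENSMUSG00000020866 (Cacna1g, chromosome 11), ENSMUSG00000024112 (Cacna1h, chromosome 17) and ENSMUSG00000022416 (Cacna1i, chromosome 15).

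For reference beside the results, the 300 bases around an annotated start site are shown for the 3 genes that were lower in EZH2nHom than in WT hippocampus after saline, Cacna1i, Cacna1b and Cacna1c, and for Cacna1e, which fell after kainate. The sequences are from RefSeq, build GRCm38.p6, which held windows for 5 of the 8 genes, 8 windows in all. They read 5′ to 3′ along the gene's strand, and capitals mark a match, on either strand, to the cyclic AMP response element TGACGTCA, the AP-1 element TGANTCA, the EGR element GCGNGGGCG or the GC box GGGCGG. EGR and GC box matches can overlap. The window of Cacna1i is chr15:80286988-80287287 on the plus strand, that of Cacna1b is chr2:24763103-24763402 on the minus strand, that of Cacna1c is chr6:119108446-119108745 on the minus strand and that of Cacna1e is chr1:154725871-154726170 on the minus strand. RefSeq listed 3 start sites for Cacna1c, and the one with the most CpG is shown. The other 2 windows held 7 and 3 CpG and no GC box or EGR match. The annotated 5′ ends on GRCm38 are at 154884501 for Cacna1e and 119196418 for Cacna1c. The windows shown for these genes therefore lie inside the annotated gene, not at its 5′ end.
Cacna1i: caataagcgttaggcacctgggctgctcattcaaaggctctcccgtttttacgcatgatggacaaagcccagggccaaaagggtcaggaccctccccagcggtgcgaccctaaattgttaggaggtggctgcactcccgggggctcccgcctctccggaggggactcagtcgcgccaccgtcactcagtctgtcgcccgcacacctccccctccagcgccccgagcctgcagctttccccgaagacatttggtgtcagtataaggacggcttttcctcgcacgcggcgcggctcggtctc
Cacna1b: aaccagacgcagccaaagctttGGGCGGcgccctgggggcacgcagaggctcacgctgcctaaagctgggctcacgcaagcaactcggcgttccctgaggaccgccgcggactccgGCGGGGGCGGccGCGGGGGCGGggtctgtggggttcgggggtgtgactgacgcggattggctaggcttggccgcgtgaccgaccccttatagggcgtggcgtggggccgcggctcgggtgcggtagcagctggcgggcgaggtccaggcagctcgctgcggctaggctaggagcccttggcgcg
Cacna1c: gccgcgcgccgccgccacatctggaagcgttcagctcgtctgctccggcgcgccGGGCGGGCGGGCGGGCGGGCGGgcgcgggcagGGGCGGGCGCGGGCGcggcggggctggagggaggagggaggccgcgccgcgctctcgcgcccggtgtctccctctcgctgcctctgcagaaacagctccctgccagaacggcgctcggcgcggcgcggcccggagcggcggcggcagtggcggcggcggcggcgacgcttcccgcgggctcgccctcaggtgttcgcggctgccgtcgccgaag
Cacna1e: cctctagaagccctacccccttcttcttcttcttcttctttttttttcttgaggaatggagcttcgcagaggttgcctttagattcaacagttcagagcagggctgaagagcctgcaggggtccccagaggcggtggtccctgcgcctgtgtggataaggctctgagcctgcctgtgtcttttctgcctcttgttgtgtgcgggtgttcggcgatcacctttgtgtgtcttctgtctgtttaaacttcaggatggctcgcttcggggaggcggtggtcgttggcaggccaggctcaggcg
The Cacna1i window held 23 CpG dinucleotides, that of Cacna1b 35, that of Cacna1c 57 and that of Cacna1e 11, against a median of 7 over 32851 RefSeq promoter windows of the same length. The GC box was matched 3 times in the Cacna1b window and 6 times in that of Cacna1c, and 35.7% of all promoter windows held it. The EGR element was matched 2 times in Cacna1b and 1 time in Cacna1c, against 5.55% of all windows with a match. Cacna1i and Cacna1e had no match to any of the 4 elements in these windows, and a match or its absence is a description of the letters only. The AP-1 element stood in 7.81% of all windows and the cyclic AMP response element in 1.79%, and neither was matched in the windows shown.

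Total reads per library ran from 24496685 to 43948317, and the 8 genes were read between 542 times (the lowest library of Cacna1g) and 18591 times (the highest of Cacna1e). Ezh2, the targeted gene, had 14.5 to 19.6 CPM in EZH2nHom kainate libraries, 11.8 to 15.5 in EZH2nHom saline libraries, 10.8 to 20.3 in WT kainate libraries and 9.61 to 12.9 in WT saline libraries, where CPM, the count relative to library size, uses sizes scaled by TMM factors to make libraries comparable. Its log2 fold change in EZH2nHom over WT libraries was 0.21 ± 0.17 after kainate and 0.27 ± 0.16 after saline (SE; edgeR's quasi-likelihood test, adjusted p = 0.473 and 0.288), and a whole-gene count of bulk tissue does not check a deletion within neurons. In a principal component analysis of all genes, kainate replicate 2 of EZH2nHom stood apart on the component that held 13.9% of the variance. Structural RNA took 0.194 to 0.77% of reads in EZH2nHom kainate libraries and 0.215 to 0.761% in EZH2nHom saline libraries. It took 0.0692 to 0.215% in WT kainate libraries and 0.0598 to 0.0884% in WT saline libraries, so this measure moved with genotype. In WT its mean also differed with treatment, at 0.164% after kainate and 0.0723% after saline, with ranges that overlapped. The summed level of 5 choroid plexus markers ran from 13.1 to 682 CPM in EZH2nHom kainate, 36.3 to 3701 in EZH2nHom saline, 28.3 to 1157 in WT kainate and 19.4 to 3957 in WT saline libraries. The filter on low counts was passed by 12 of 12 neuron markers and 7 of 7 dentate granule cell markers. It was also passed by 7 of 7 thalamus and 5 of 5 choroid plexus markers, so passing it does not check the tissue label.

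Per kilobase of exon, Cacna1e stood above the other 7 genes in all 19 libraries. Its level averaged 12.6 ± 2.55 CPM per kb in EZH2nHom kainate libraries, 17.5 ± 1.98 in EZH2nHom saline, 15.3 ± 3.67 in WT kainate and 19.4 ± 2.46 in WT saline libraries (SD, n = 4, 5, 5 and 5). The exon lengths are those of all annotated exons merged per gene, 25228 bases for Cacna1e and 9763 to 21191 bases for the others, from an annotation on GRCm38 while the reads were counted on mm39. Cacna1b, the N-type gene, came second with a mean of 6.73 CPM per kb over the 19 libraries, ahead of Cacna1a with 4.91, Cacna1h with 4.35, Cacna1c with 3.85, Cacna1i with 3.33, Cacna1d with 2.95 and Cacna1g with 2.79. Cacna1b was above Cacna1a in each of the 19 libraries, and its lowest library was above the highest of Cacna1a within the EZH2nHom kainate and WT saline groups but not within the EZH2nHom saline and WT kainate groups. Below Cacna1b, no gene was above its next neighbour in all 19 libraries. Per kilobase of the longest coding sequence the order among the others changed, with Cacna1c at 12.2, Cacna1b at 9.58 and Cacna1a at 7.89 CPM per coding kb below Cacna1e at 60.7, so the ranks below Cacna1e depend on the length used.

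**Figure D1:**
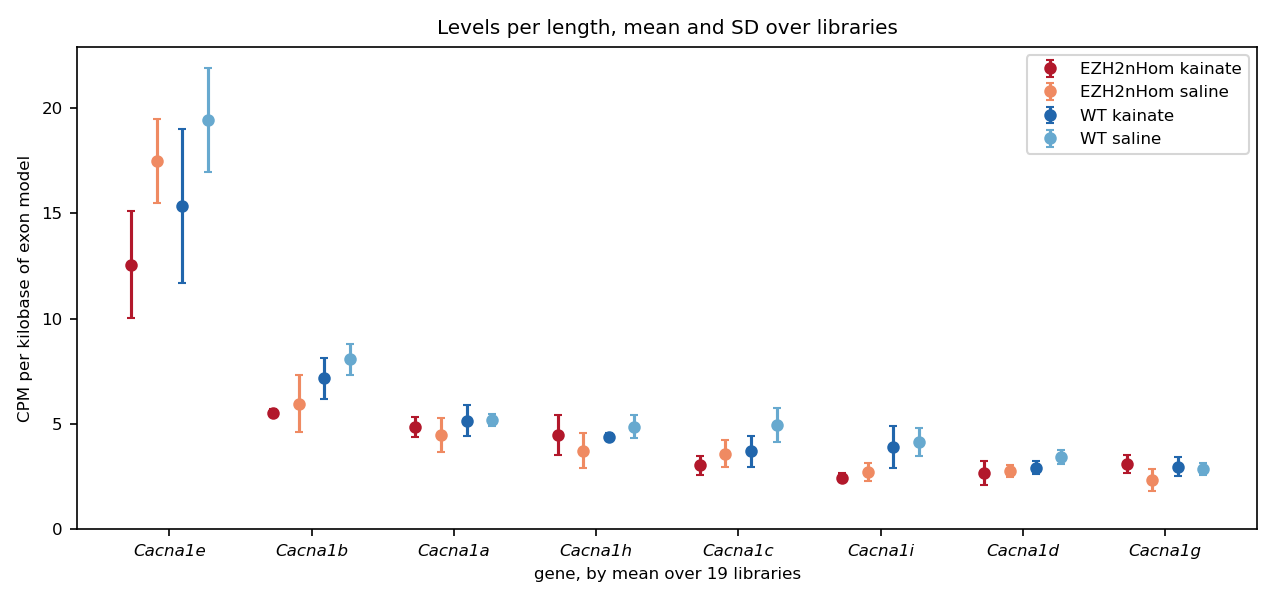
Mean level of each gene in CPM per kilobase of merged exons (vertical axis) in the 4 groups, with bars of 1 SD over 4 EZH2nHom kainate libraries and 5 libraries in each of the other groups. Cacna1e lies between 12.6 and 19.4 CPM per kb in its group means, and the group means of the other 7 genes lie between 2.33 and 8.05.

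The summed level of the 8 genes was 38.6 ± 4.18 CPM per kb in EZH2nHom kainate, 43.0 ± 6.16 in EZH2nHom saline, 45.5 ± 7.29 in WT kainate and 52.8 ± 5.36 in WT saline libraries (SD). Cacna1e made up 32.3% ± 3.24 of that sum in EZH2nHom kainate libraries, 40.9% ± 2.82 in EZH2nHom saline, 33.4% ± 2.85 in WT kainate and 36.7% ± 1.79 in WT saline. The share of Cacna1g, a T-type gene, was 8.03% ± 1.32 in EZH2nHom kainate, 5.38% ± 0.503 in EZH2nHom saline, 6.62% ± 1.35 in WT kainate and 5.41% ± 0.607 in WT saline. In EZH2nHom the 4 kainate libraries had Cacna1e shares of 29.0 to 36.6%, all below the 38.0 to 45.5% of the 5 saline libraries, and Cacna1g shares of 6.74 to 9.48%, all above the 4.70 to 5.93% of the saline libraries. In WT the shares of both genes overlapped between treatments. The share of Cacna1a was higher after kainate without overlap in both genotypes. It was 11.4 to 13.9% in EZH2nHom kainate and 9.54 to 10.98% in EZH2nHom saline libraries. In WT it was 10.8 to 12.2% after kainate and 9.33 to 10.5% after saline. The log2 fold changes of its level were 0.12 ± 0.12 in EZH2nHom and -0.0039 ± 0.11 in WT (SE). Its level in CPM overlapped between treatments in both genotypes. How often shares of genes separate groups in this way was not counted. The shares are parts of a sum, so a fall of Cacna1e by itself raises those of the other genes.

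**Figure D2:**
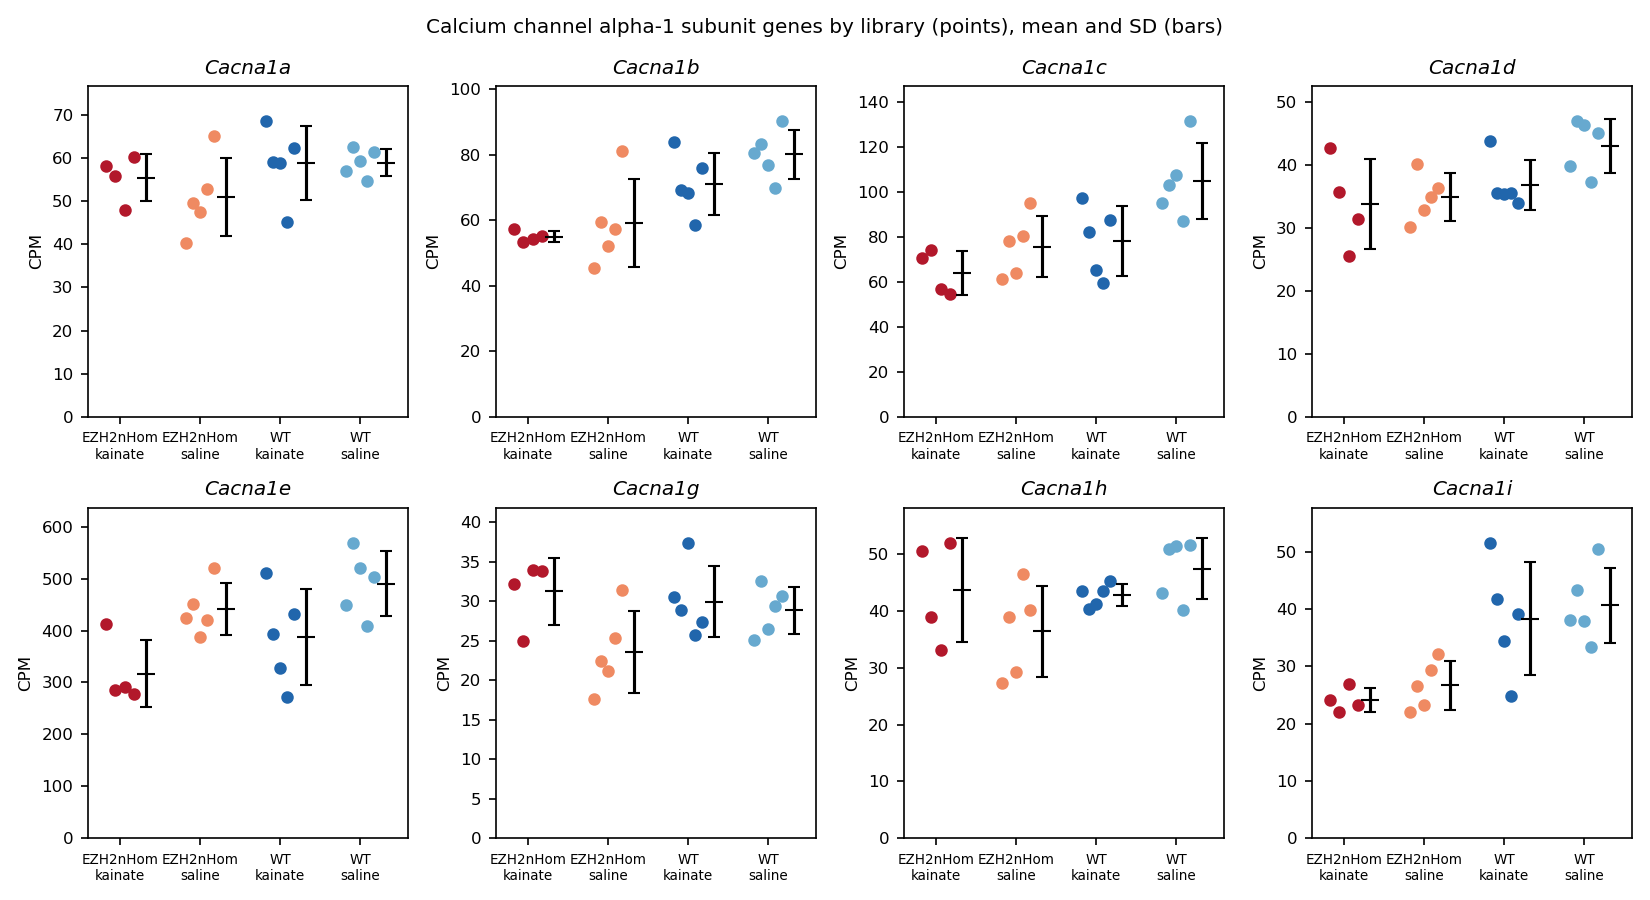
Level of each of the 8 genes in CPM (vertical axes from 0) in each library (points) by group, with the mean and 1 SD beside the points. Cacna1i separates the genotypes after saline, with 22.1 to 32.2 CPM in EZH2nHom and 33.3 to 50.5 in WT libraries, and 3 of the 4 EZH2nHom kainate libraries of Cacna1e lie at 278 to 291 CPM.

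Neuronal loss of EZH2 without seizures was examined by setting EZH2nHom saline against WT saline libraries. All 8 alpha-1 genes had a log2 fold change below 0, with a median of -0.34 against 0.02 over all genes, and 3 of 8 passed the test as lower, namely Cacna1i, Cacna1b and Cacna1c. The test was edgeR's quasi-likelihood test with Benjamini-Hochberg adjustment over all genes, at an adjusted p under 0.05, in a fit to all 19 libraries. Of all genes tested, 13.5% passed in this comparison, 8.33% as higher and 5.16% as lower, and 47.9% had a log2 fold change below 0. The 8 genes varied together within groups, as described below, so their directions are not 8 independent observations. Among the 1594 genes with merged exons at least as long as the shortest of the 8 (9763 bases), 10.7% passed as lower, with a median log2 fold change of -0.03.

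Cacna1i, the T-type subunit with the slowest gating, had 22.1, 26.5, 23.2, 29.4 and 32.2 CPM in EZH2nHom saline libraries, against 38.1, 43.2, 38.0, 33.3 and 50.5 CPM in WT saline libraries. Every EZH2nHom library lay below every WT library. How many of all genes separate these groups in this way was not counted. The level fell by 34.3%, a log2 fold change of -0.61 ± 0.16 (SE; edgeR adjusted p = 0.0132), and an exact two-sided permutation test over the 10 libraries gave p = 0.00794, the smallest p that 252 relabellings allow. The call held on leaving out each of the 19 libraries in turn, with log2 fold changes of -0.72 to -0.55.

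Cacna1b, the N-type subunit of presynaptic terminals, had 45.5, 59.4, 52.0, 57.3 and 81.1 CPM in EZH2nHom saline libraries, against 80.3, 83.2, 76.9, 69.8 and 90.1 CPM in WT saline libraries. Of the EZH2nHom libraries 4 of 5 lay below the lowest WT library, and replicate 5 lay within the WT range. The log2 fold change was -0.44 ± 0.12 (edgeR adjusted p = 0.0223; exact two-sided permutation p = 0.0317). Without EZH2nHom saline replicate 1 the adjusted p was 0.0677, and without EZH2nHom saline replicate 3 it was 0.0631, both by edgeR, and the call was also lost with a sex-linked covariate (edgeR adjusted p = 0.0592).

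Cacna1c, the main L-type subunit of brain, had 61.0, 78.2, 63.9, 80.1 and 94.8 CPM in EZH2nHom saline libraries, against 95.2, 103, 107.6, 86.8 and 131 CPM in WT saline libraries. Again 4 of 5 EZH2nHom libraries lay below the lowest WT library. The log2 fold change was -0.47 ± 0.15 (edgeR adjusted p = 0.0405; exact two-sided permutation p = 0.0159). The call was lost on leaving out WT saline replicate 2, 3 or 5 or EZH2nHom saline replicate 1, 2, 3 or 4, with edgeR adjusted p between 0.0555 and 0.115, with the share of structural RNA as a covariate (adjusted p = 0.116) and with a sex-linked covariate (adjusted p = 0.0924).

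The other 5 genes did not pass edgeR's test after saline, while DESeq2 called 4 of the 8, Cacna1h among them (adjusted p = 0.044). Cacna1d passed in a fit to the saline groups alone (edgeR adjusted p = 0.0106). These settings also called more genes in all. DESeq2 called 3194 and the fit to the saline groups 5604 of 17814, against 2596 of 19234 in the main fit. The L-type gene Cacna1d had a log2 fold change of -0.30 ± 0.12 (edgeR adjusted p = 0.0951), with 30.1 to 40.2 CPM in EZH2nHom and 37.2 to 46.9 CPM in WT libraries. The T-type gene Cacna1h had -0.38 ± 0.14 (edgeR adjusted p = 0.0757), with 27.3 to 46.5 CPM in EZH2nHom and 40.2 to 51.5 CPM in WT libraries. For Cacna1d 4 of 5 and for Cacna1h 3 of 5 EZH2nHom libraries lay below the lowest WT library. With the structural RNA share as a covariate, Cacna1h passed at -0.65 (edgeR adjusted p = 0.00811) and the T-type gene Cacna1g at -0.52 (edgeR adjusted p = 0.0399), while in the fit without it Cacna1g had -0.29 ± 0.14 (edgeR adjusted p = 0.179). That share did not overlap between the genotypes after saline, so this fit cannot cleanly separate it from genotype. Leaving out 1 library also moved such calls: Cacna1d passed without WT saline replicate 4 (edgeR adjusted p = 0.0487) and without EZH2nHom kainate replicate 1 (0.0322), Cacna1h passed without those libraries (0.0412 and 0.0454) and without EZH2nHom saline replicate 4 (0.0281), and Cacna1g passed without EZH2nHom saline replicate 5 (0.041). The P/Q-type gene Cacna1a had -0.21 ± 0.11 (edgeR adjusted p = 0.256), and Cacna1e had -0.15 ± 0.15 (edgeR adjusted p = 0.571), the smallest difference of the 8.

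Cell type marker lists moved in differing directions in this comparison. Of 12 neuron markers 2 passed as higher in EZH2nHom saline libraries, Thy1 and Gap43, and the list's median log2 fold change was 0.26. Its summed level was 7297 to 8133 CPM in EZH2nHom saline libraries and 6244 to 6894 CPM in WT saline libraries, which do not overlap. The sum of 6 excitatory neuron markers was 1515 to 1805 CPM in EZH2nHom saline and 1878 to 2090 CPM in WT saline libraries, lower without overlap, although 2 of the 6 passed as higher. The sum of 10 astrocyte markers was 4256 to 4824 CPM in EZH2nHom saline and 5400 to 6118 CPM in WT saline libraries, also lower without overlap, and 3 of 10 passed as lower. Microglia markers summed to 356 to 401 CPM in EZH2nHom saline and 416 to 466 CPM in WT saline libraries, lower without overlap. CA3 and CA2 markers summed to 263 to 283 CPM in EZH2nHom saline and 225 to 262 CPM in WT saline libraries, higher without overlap. The sums of the other cell type lists overlapped. The part that cell composition has in the alpha-1 differences was not tested. No sample code prefix occurs in both genotypes, so genotype and any batch that these prefixes mark cannot be told apart.

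After kainate, EZH2nHom was again set against WT. The median log2 fold change of the 8 genes was -0.21 against 0.00 over all genes, and 6 of 8 were below 0, as were 49.6% of all genes. Of the 8, 1 passed, Cacna1i, where 7.61% of all genes passed, 4.56% as higher and 3.04% as lower. Among the 1594 genes with exons at least as long, the median was -0.09 and 8.47% passed as lower. Cacna1i had 24.2, 22.1, 26.97 and 23.3 CPM in EZH2nHom kainate libraries, against 51.5, 41.8, 34.4, 24.8 and 39.2 CPM in WT kainate libraries. WT replicate 4 lay within the EZH2nHom range, and the other 4 WT libraries lay above it. The log2 fold change was -0.67 ± 0.17 (edgeR adjusted p = 0.0207), close to the -0.61 after saline. The exact two-sided permutation test gave p = 0.0238, with 3 of 126 relabellings at least as large. The call was lost without WT kainate replicate 1 (edgeR adjusted p = 0.0694) or replicate 2 (0.0598), and in a fit to these 2 groups alone (0.195).

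Cacna1b had 57.2, 53.2, 54.1 and 55.3 CPM in EZH2nHom kainate libraries, against 83.9, 69.2, 68.2, 58.4 and 75.9 CPM in WT kainate libraries. The groups did not overlap, all EZH2nHom libraries being lower, and how many of all genes do so was not counted. The change of -0.37 ± 0.13 on the log2 scale did not pass (edgeR adjusted p = 0.0878). The exact two-sided permutation test gave p = 0.0159, with 2 of 126 relabellings at least as large. The change passed edgeR's test without WT kainate replicate 4 (edgeR adjusted p = 0.0386) or EZH2nHom saline replicate 5 (0.0358).

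The other 6 genes gave no call between genotypes after kainate. Cacna1c had a log2 fold change of -0.29 ± 0.16 (edgeR adjusted p = 0.278) and Cacna1e also -0.29 ± 0.16 (edgeR adjusted p = 0.28). Cacna1d, Cacna1a, Cacna1h and Cacna1g lay between -0.12 and 0.06. The intervals of the T-type genes Cacna1g and Cacna1h, -0.24 to 0.36 and -0.28 to 0.34 (95%), do not show that their levels were equal. Markers of red blood cells differed between these groups, with 5 of 5 lower in EZH2nHom kainate libraries (summed 103 to 434 CPM) than in WT kainate libraries (552 to 1974 CPM), and their part in the alpha-1 values was not tested.

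**Figure D3:**
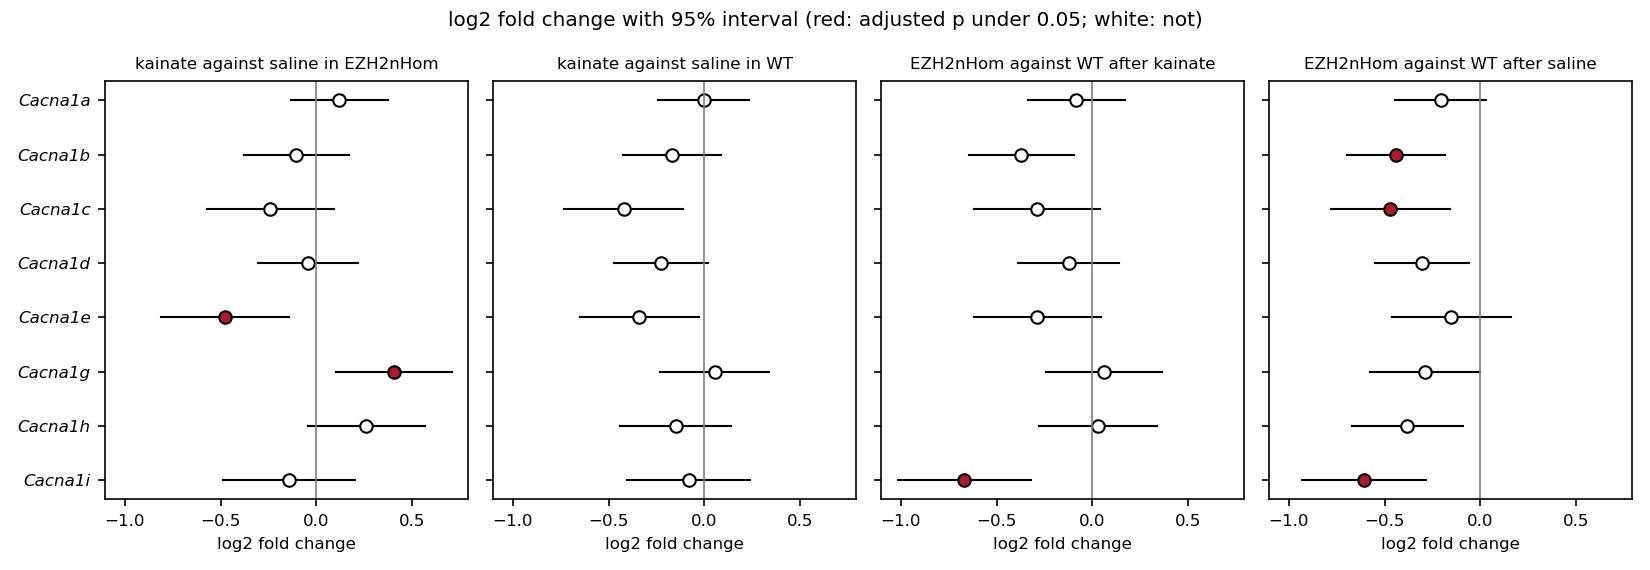
Log2 fold change of each gene (points) with its 95% interval (lines) in 4 comparisons, with kainate over saline in EZH2nHom and in WT on the left and EZH2nHom over WT after kainate and after saline on the right; filled points passed at an adjusted p under 0.05 by edgeR. All 8 points lie left of 0 between genotypes after saline, and Cacna1e and Cacna1g are the filled points for kainate in EZH2nHom.

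The response to status epilepticus in EZH2nHom was measured as kainate against saline libraries of that genotype. The 8 genes were split, with Cacna1g higher, Cacna1e lower and 6 not passing, where 26.1% of all genes passed, 14.3% as higher and 11.8% as lower. The median log2 fold change of the 8 was -0.07, against -0.02 over all genes. Among the 1594 genes with exons at least as long, 30.7% passed and 21.9% passed as lower.

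Cacna1e, the R-type subunit, had 413, 286, 291 and 278 CPM in EZH2nHom kainate libraries, against 425, 451, 388, 420 and 521 CPM in EZH2nHom saline libraries. Replicates 2, 3 and 4 of the kainate group lay below every saline library, and replicate 1 lay within the saline range. The level fell by 28.2%, a log2 fold change of -0.48 ± 0.16 (edgeR adjusted p = 0.0327). The exact two-sided permutation test gave p = 0.0159, with 2 of 126 relabellings at least as large. The call was lost on leaving out any of 12 libraries, with edgeR adjusted p between 0.0575 and 0.0949 and log2 fold changes of -0.47 to -0.41. These were WT saline replicates 1 to 5, WT kainate replicates 2 and 3, EZH2nHom saline replicates 2 and 5 and EZH2nHom kainate replicates 2, 3 and 4. It was also lost without a filter on low counts (edgeR adjusted p = 0.051) and in a fit to the EZH2nHom groups alone (0.0559).

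Cacna1g, the T-type subunit best known from thalamic burst firing, had 32.1, 25.0, 34.0 and 33.9 CPM in EZH2nHom kainate libraries, against 17.6, 22.4, 21.2, 25.3 and 31.5 CPM in EZH2nHom saline libraries. Of the kainate libraries 3 of 4 lay above the highest saline library, and replicate 2, the library that stood apart on the principal component above, lay within the saline range. This was a log2 fold change of 0.40 ± 0.14 (edgeR adjusted p = 0.0452), while the exact two-sided permutation test gave p = 0.0556. The call was lost without EZH2nHom saline replicate 1, 2, 3 or 4 or EZH2nHom kainate replicate 1, 3 or 4 (edgeR adjusted p between 0.0528 and 0.114) with a sex-linked covariate (0.0575) and in a fit to the EZH2nHom groups alone (0.0937). Of 7 thalamus markers 1 passed as lower in this comparison, with a list median of -0.12.

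The other T-type genes did not pass in EZH2nHom. Cacna1h had 50.6, 38.9, 33.2 and 51.9 CPM in EZH2nHom kainate libraries, against 27.3, 39.0, 29.2, 46.5 and 40.2 CPM in EZH2nHom saline libraries, with 2 of 4 kainate libraries above the saline range and a log2 fold change of 0.26 ± 0.15 (edgeR adjusted p = 0.201). Cacna1i had -0.14 ± 0.17 (edgeR adjusted p = 0.558). The presynaptic genes Cacna1a and Cacna1b had 0.12 ± 0.12 and -0.10 ± 0.13 (edgeR adjusted p = 0.501 and 0.596), and the L-type genes Cacna1c and Cacna1d had -0.24 ± 0.16 and -0.05 ± 0.13 (edgeR adjusted p = 0.28 and 0.825). Beside these values, 5 of 12 neuron markers and 7 of 10 interneuron markers passed as lower after kainate in EZH2nHom, the summed neuron markers being at 4937 to 6597 CPM in kainate libraries and 7297 to 8133 CPM in saline libraries. Of other lists in the same comparison, 9 of 10 microglia and 7 of 10 astrocyte markers passed as higher, and 4 of 7 dentate granule cell, 4 of 7 CA3 and CA2 and 3 of 8 oligodendrocyte markers as lower. The part of these shifts in the alpha-1 values was not tested, and since no code prefix occurs in both EZH2nHom arms, treatment and prefix cannot be told apart there.

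In WT hippocampus the response to status epilepticus gave no call among the 8 genes by edgeR, where 12% of all genes passed, 9.47% as higher and 2.57% as lower. At an unadjusted p under 0.05 there were 2 of 8, Cacna1c and Cacna1e, and DESeq2 called 1, Cacna1c; over all 19234 genes 4741 had an unadjusted p under 0.05 by edgeR, and DESeq2 called 2838. The log2 fold changes of 7 of 8 were below 0, as were 52.4% of all genes, with a median of -0.16 against -0.02 over all genes. Among the 1594 genes with exons at least as long, the median was -0.06 and 5.77% passed as lower. Markers of dentate granule cells fell in the same comparison, 5 of 7 passing as lower, and 10 of 10 microglia, 4 of 10 astrocyte and 5 of 5 red blood cell markers passed as higher; their part in the alpha-1 values was not tested. The 12 neuron markers had a median of -0.01.

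Cacna1c had 97.0, 82.0, 65.2, 59.4 and 87.2 CPM in WT kainate libraries, against 95.2, 103, 107.6, 86.8 and 131 CPM in WT saline libraries. Of the kainate libraries 3 of 5 lay below the saline range, replicates 2, 3 and 4. The log2 fold change was -0.42 ± 0.15 (edgeR adjusted p = 0.0725; exact two-sided permutation p = 0.0397). With the replicate number as a block, Cacna1c passed at -0.43 (edgeR adjusted p = 0.0262), though the labels state no pairing by number. It also passed without WT kainate replicate 1 at -0.52 (edgeR adjusted p = 0.0317) and by the DESeq2 Wald test (adjusted p = 0.0444).

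Cacna1e had 511, 394, 327, 272 and 431 CPM in WT kainate libraries, against 450, 569, 520, 409 and 504 CPM in WT saline libraries. Kainate replicates 1 and 5 lay within the saline range and replicates 2, 3 and 4 below it. Its change was -0.34 ± 0.15 (edgeR adjusted p = 0.157; exact two-sided permutation p = 0.0714), and it passed without WT kainate replicate 1 at -0.47 (edgeR adjusted p = 0.0431).

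Sample code prefixes shared between the WT arms gave opposite directions for all 8 genes. The prefix that holds WT kainate replicate 1 and WT saline replicate 4 gave a mean log2 difference of 0.16 for Cacna1c and 0.32 for Cacna1e. The prefix that holds WT kainate replicates 2, 3 and 4 and WT saline replicate 2 gave -0.59 for Cacna1c and -0.80 for Cacna1e. Of the WT kainate libraries, replicate 1 lay nearest to the saline libraries on the principal component with 39.4% of the variance (-2.79, against 11.1 to 84.6 for the other 4). So the direction in WT did not hold within both prefixes, each of which has 1 saline library and allows no test, and the labels do not say what the prefixes mean.

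The remaining WT values were small. Cacna1d had 43.8, 35.5, 35.3, 35.5 and 33.9 CPM in WT kainate libraries, against 39.8, 46.9, 46.2, 37.2 and 44.99 CPM in WT saline libraries, a log2 fold change of -0.23 ± 0.12 (edgeR adjusted p = 0.248). All WT kainate libraries but replicate 1 lay below the saline range. Cacna1b and Cacna1h had -0.17 ± 0.12 and -0.15 ± 0.14 (edgeR adjusted p = 0.427 and 0.557). Cacna1i, Cacna1a and Cacna1g lay between -0.08 and 0.05 (edgeR adjusted p between 0.799 and 0.99).

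Whether the genotypes responded differently was tested as the difference of the kainate responses, EZH2nHom minus WT. By edgeR 0 of 8 genes passed, where 0% of all genes passed; 0 of 8 had an unadjusted p under 0.05, and DESeq2 called 0 of 8. Over all genes DESeq2 called 12, and 1685 genes had an unadjusted p under 0.05 by edgeR. The T-type genes Cacna1h and Cacna1g had the largest differences of the 8, 0.41 (95% interval -0.01 to 0.83; edgeR adjusted p = 0.578) and 0.35 (-0.07 to 0.77; adjusted p = 0.631). The other 6 lay between -0.14 and 0.18. So the calls of Cacna1e and Cacna1g in EZH2nHom, with log2 changes of -0.48 and 0.40 there and -0.34 and 0.05 in WT, were not shown to differ between genotypes.

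Averaged over the genotypes, 2 of the 8 genes were lower after kainate, Cacna1e and Cacna1c, where 32.1% of all genes passed, 17.7% as higher and 14.4% as lower. Cacna1e had an averaged log2 fold change of -0.41 ± 0.11 (edgeR adjusted p = 0.00701) and kept the call on leaving out each of the 19 libraries. Cacna1c had -0.33 ± 0.11 (edgeR adjusted p = 0.0244), lost without WT saline replicate 2, 3 or 5, WT kainate replicate 3 or EZH2nHom kainate replicate 4 (adjusted p between 0.0542 and 0.0799). Cacna1g had 0.23 ± 0.10 and did not pass (edgeR adjusted p = 0.0853), except without EZH2nHom saline replicate 5 (0.0188) or EZH2nHom kainate replicate 2 (0.0303). Among the genes with exons at least as long, 26% passed as lower in this average. The authors' deposited table, whose log2 fold change matches WT saline over EZH2nHom kainate, gives adjusted p-values of 1.72e-05 for Cacna1i, 0.000718 for Cacna1b, 0.000726 for Cacna1c and 0.00579 for Cacna1e, and values of 0.05 or more for the other 4; the comparison that these p-values test is not stated there.

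Auxiliary subunits and channel partners were measured from lists of genes known to act on these channels. Of 15 auxiliary subunit genes tested, 3 passed as lower after kainate in EZH2nHom: Cacng3 with a log2 fold change of -0.92 ± 0.17, Cacnb4 with -0.37 ± 0.13 and Cacng7 with -0.29 ± 0.10 (edgeR adjusted p = 0.000714, 0.0362 and 0.0362), where 26.1% of all genes passed and 11.8% as lower. Cacnb4 encodes a beta subunit that traffics alpha-1 subunits, and Cacng3 and Cacng7 encode proteins of the gamma family that mainly escort AMPA-type glutamate receptors. In WT 1 of 15 passed, Cacna2d4, an alpha-2-delta subunit, as higher with 0.88 ± 0.21 (edgeR adjusted p = 0.00858), where 12% of all genes passed. The list's median was -0.29 in EZH2nHom and -0.13 in WT, against -0.02 over all genes in each.

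Of 16 regulator and scaffold genes tested, 3 passed as higher and 3 as lower in EZH2nHom after kainate, and 2 as higher and 1 as lower in WT. Over all genes, 14.3% passed as higher and 11.8% as lower in EZH2nHom, and 9.47% and 2.57% in WT. Gem, a small GTPase that inhibits high-voltage-activated channels through the beta subunit, rose by 1.78 ± 0.28 on the log2 scale in EZH2nHom and 1.28 ± 0.27 in WT (edgeR adjusted p = 0.000175 and 0.00412). Kcnip3, a calcium-binding protein, rose by 0.44 ± 0.11 in EZH2nHom and 0.45 ± 0.10 in WT (edgeR adjusted p = 0.00474 and 0.00541). Rims1, an active-zone scaffold that holds P/Q- and N-type channels at release sites, fell by 0.62 ± 0.12 in EZH2nHom and by 0.37 ± 0.11 in WT (edgeR adjusted p = 0.000764 and 0.0314). In EZH2nHom its relative Rims2 fell by 0.53 ± 0.12, Akap5, a postsynaptic anchor of kinases at L-type channels, fell by 0.90 ± 0.18, and Rimbp2, a linker of Rims proteins to channels, rose by 0.48 ± 0.15 (edgeR adjusted p = 0.00409, 0.00109 and 0.0212).

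Of 15 genes of calcium stores and extrusion tested, 2 passed as higher and 6 as lower in EZH2nHom, and 1 as higher and 2 as lower in WT, where 26.1% of all genes passed in EZH2nHom and 12% in WT. Itpr2, an inositol trisphosphate receptor prominent in astrocytes, rose by 0.92 ± 0.17 in EZH2nHom and by 0.97 ± 0.16 in WT (edgeR adjusted p = 0.000671 and 0.000616). Ryr1, a ryanodine receptor, fell by 0.82 ± 0.24 in EZH2nHom and by 1.25 ± 0.23 in WT (edgeR adjusted p = 0.0161 and 0.00113). Atp2b3, a plasma membrane calcium pump, fell by 0.83 ± 0.15 in EZH2nHom and by 0.50 ± 0.14 in WT (edgeR adjusted p = 0.000588 and 0.0258). Itpr1, the main neuronal inositol trisphosphate receptor, fell by 0.69 ± 0.17 in EZH2nHom (edgeR adjusted p = 0.00602) and had -0.40 ± 0.16 in WT (edgeR adjusted p = 0.118). The 8 calcium-activated potassium channel genes tested had adjusted p of 0.13 or more in EZH2nHom and 0.29 or more in WT by edgeR.

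**Figure D4:**
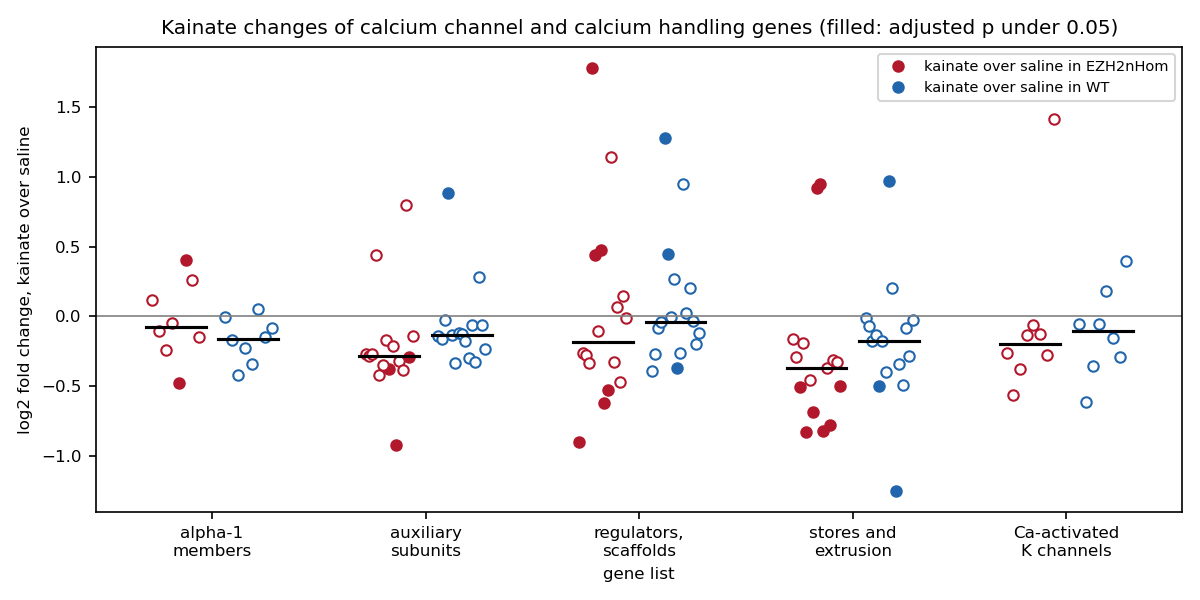
Log2 fold change of kainate over saline (vertical axis) for each tested gene of 5 lists, with EZH2nHom points left of WT points; filled points passed at an adjusted p under 0.05 by edgeR and bars mark list medians. Among the alpha-1 genes 2 points are filled in EZH2nHom, Cacna1g above 0 and Cacna1e below, and the highest filled point of any list is Gem at 1.78 in EZH2nHom.

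Within groups, the 8 genes varied together from library to library. Each library's deviation of log2 CPM from its group mean was correlated between genes over the 19 libraries, as a description, since the genes share library, depth and scaling. All 28 pairs had a Pearson correlation above 0, with a median of 0.62 and 19 of 28 above 0.5. The presynaptic pair Cacna1a and Cacna1b had the highest, 0.89, followed by Cacna1b and Cacna1i with 0.82. Cacna1d and Cacna1g had the lowest, 0.13.

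**Figure D5:**
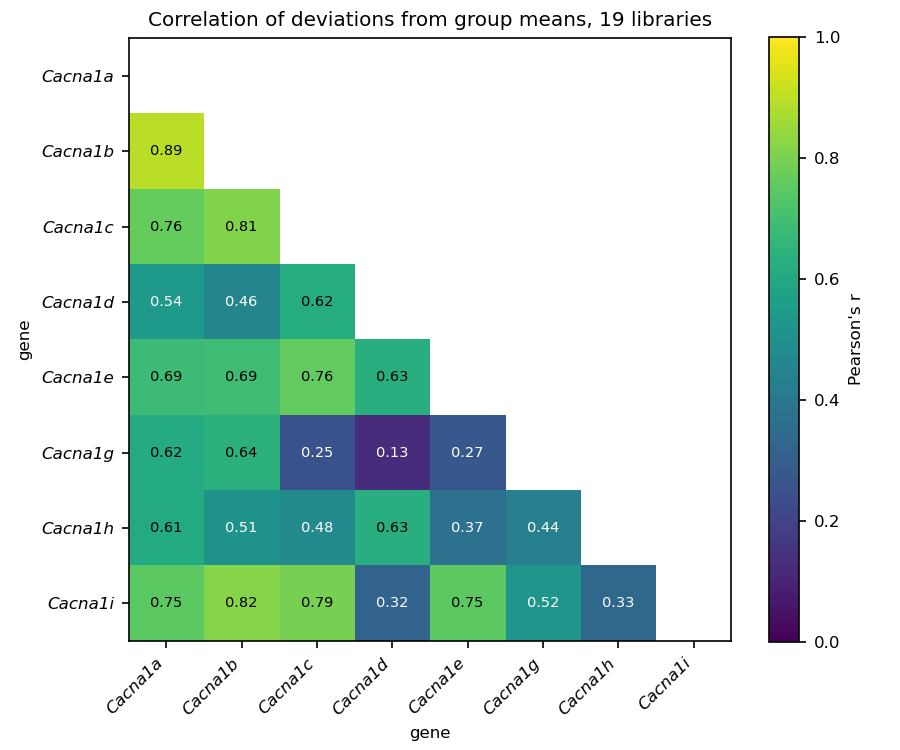
Pearson correlation (colour and printed value) between each pair of genes of the deviations of log2 CPM from the group mean over 19 libraries. Values run from 0.13 for Cacna1d with Cacna1g to 0.89 for Cacna1a with Cacna1b.

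By the same measure, each gene was set against 11305 genes that average at least 5 CPM, and the nearest are named from the 3 most alike. Cacna1e was nearest to Ksr2, Lrrc7 and Grin2b, with correlations of 0.97 each. Cacna1b was near to Myo16 (0.95) and Adgrl1 (0.94), Cacna1a to Wnk2 (0.93) and Celf5 (0.92), and Cacna1c to Auts2 (0.94), Hectd4 and Trim9 (0.92 each). Grin2b encodes an NMDA-type glutamate receptor subunit. Cacna1d was nearest to Ino80d (0.95), Celf2 (0.93) and Huwe1 (0.91), and Cacna1i to Slc12a5 (0.94), the neuronal chloride exporter, and to Dmtn and Synpo (0.91 each). The T-type genes Cacna1g and Cacna1h had lower nearest values, 0.87 with Tmem94 for Cacna1g and 0.91 with Ttc28 for Cacna1h. Without EZH2nHom kainate replicate 2 the nearest values of the 8 genes lay between 0.84 and 0.97.

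Reads of some of these genes may be shared. In the annotation, exons of Cacna1a overlap Gm16183 on the opposite strand over 435 bases, exons of Cacna1d overlap Chdh over 589 bases and exons of Cacna1h overlap Tpsg1 over 158 bases, and the strand setting of the counting is not given in the sources used here. Of the 32-base words in the 8 genes, 0.135% (Cacna1c) to 4.65% (Cacna1d) also occur in another gene.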

How the data were processed

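Per the labels' protocols, libraries were made from hippocampal RNA after depletion of rRNA. The deposited counts are whole reads for 55416 Ensembl genes. The submitters' processing notes name the build mm39, DESeq2 and DESeq; aligner, counter and strand setting are not given in the sources used here. A further table by the authors gave gene symbols, and was used also for its deposited log2 fold changes, p-values, test score and signal (counts per size factor, by the authors).

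Genes were kept by filterByExpr by group (19234). edgeR 4.0.16 with TMM scaling fitted a robust quasi-likelihood model with 4 group means to 19 libraries in R 4.3.3, with Benjamini-Hochberg adjustment over all genes. Errors of log2 changes are SE, those of levels SD. Exact permutation tests used mean log2 CPM with a prior count of 2. EZH2nHom kainate libraries are numbered by their titles. The script was tested on simulated data.

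In WT, kainate and saline libraries with the same number had correlated deviations (0.221 to 0.571 in 5 pairs over 11754 genes). In 3 of the 5 pairs the same number was the best match. Between genotypes, libraries with the same number reached 0.565 after saline and 0.524 after kainate. The correlations in WT therefore do not establish a pairing, and the labels state none. Alternatives were DESeq2 1.42.0 size factors and Wald test, filters, separate fits, the replicate block, 2 covariates, a threshold of 0.01 and leaving out each library. The members and gene lists were chosen with earlier results of these data known. The named genes are the 8 members, Ezh2, the 3 genes most like each member (some are not reported here), and per kainate contrast and list up to 4 genes that passed with the smallest p in each direction; markers named beside them were chosen after their values were seen.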

Additional observations from a re-analysis of the deposited data

Results flagged for a closer look

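Of 32 sets of values (8 genes in 4 groups), 2 held a library far from the others by Dixon's ratio, where chance gives about 1 in 20. Cacna1e had 413 CPM in EZH2nHom kainate replicate 1, while the other 3 libraries of that group had 278 to 291 CPM. Without that library the kainate change of Cacna1e in EZH2nHom was -0.60 on the log2 scale, against -0.48 with it. Cacna1d had 43.8 CPM in WT kainate replicate 1, while the other 4 libraries had 33.9 to 35.5 CPM, and its kainate change in WT was -0.31 without that library and -0.23 with it, not passing edgeR's quasi-likelihood test either way.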

How the results depend on the processing

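Precision limits most statements here: with 4 or 5 libraries a group, several calls lie near the threshold. The calls of Cacna1i between genotypes after saline and of Cacna1e for the averaged kainate response held on leaving out each library; that of Cacna1i was lost at a threshold of 0.01. The cause of each change below was not tested.

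Members passing numbered 1 for kainate in WT, against 0, with the DESeq2 Wald test, with the replicate block, and with the block in WT libraries alone, an alternative chosen after seeing the data. For kainate in EZH2nHom 1 passed without a filter on low counts or with the sex-linked covariate, and 0 in a separate fit or at a threshold of 0.01. Between genotypes after saline 1 passed with the sex-linked covariate and 0 at 0.01, after kainate 0 in a separate fit or at 0.01, and for the average 1 at 0.01. The replicate block changed no other member's call. The EZH2nHom numbers differ between titles and columns for the kainate libraries, and their 4 pairs had correlations of -0.03 to 0.19.

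Genes passing numbered 3066 (separate fit) and 2815 (0.01) for kainate in EZH2nHom, 1083 (0.01) for kainate in WT, 5604 (separate fit) and 1212 (0.01) between genotypes after saline, 959 (no filter), 4 (separate fit) and 284 (0.01) after kainate, 12 (DESeq2 Wald test) for the difference of responses and 3969 (0.01) for the average. A separate fit cannot be made for the last 2, which use all groups.

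Directions reversed for Cacna1d with kainate in EZH2nHom (0.0070, separate fit), and with the structural RNA covariate for Cacna1g with kainate in WT (-0.0018) and for Cacna1g (-0.0645) and Cacna1h (-0.12) between genotypes after kainate; none of these had passed.

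On leaving out each library, genes passing ran from 3864 to 6096 for kainate in EZH2nHom, 1365 to 3414 for kainate in WT, 1675 to 4295 between genotypes after saline, 670 to 2193 after kainate, 0 to 4 for the difference and 5199 to 7761 for the average. The lowest and highest counts came without WT kainate replicate 4 and EZH2nHom kainate replicate 2 for kainate in WT, without WT saline replicate 3 and EZH2nHom kainate replicate 2 between genotypes after saline, and without WT kainate replicates 2 and 4 between genotypes after kainate. Members passing ran from 0 to 2, 0 to 2, 1 to 5, 0 to 2, 0 to 0 and 1 to 3 in that order. Log2 changes that changed sign ran, for kainate in EZH2nHom, from -0.185 to 0.0376 (Cacna1b) and -0.147 to 0.067 (Cacna1d); for kainate in WT, from -0.0778 to 0.0769 (Cacna1a), -0.0397 to 0.104 (Cacna1g) and -0.224 to 0.0392 (Cacna1i); between genotypes after kainate, from -0.0643 to 0.141 (Cacna1h); and for the difference, from -0.0131 to 0.209 (Cacna1b), -0.252 to 0.0381 (Cacna1e) and -0.182 to 0.12 (Cacna1i). None of these had passed.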
